A study of Mus musculus with 8 samples.

Results

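Epidermal terminal differentiation and cornified envelope genes were examined in Lgr5-traced mouse skin cells: 37 genes, chosen by symbol from the 46078 genes of the count table. The list follows what is known of these genes, but it was chosen with earlier results of these data known. By role it was split into 14 early suprabasal, 18 late granular and cornified and 5 lipid barrier genes. The mice carried the alleles named Lg5-egfp-ires-creert2/R26-tdTomato. In these, an inducible Cre (creert2) expressed from the Lgr5 gene switches on the tdTomato reporter once it is induced. Hair follicle stem cells and the cells they gave rise to can then be sorted. All 8 libraries came from cells labelled as Lgr5 hair follicle stem cells and taken after skin injury. Of these, 4 came from Treg-sufficient mice, which have regulatory T cells, and 4 from Treg-depleted mice, which lack them. Experiment 1 held replicates 1 and 2 of each condition, and experiment 2 held replicates 3 and 4. The way the regulatory T cells were removed, the kind of injury, the time after it, the age of the mice and whether a library held 1 animal or a pool are details not stated in the sources used here. The p-values therefore measure the spread between these libraries, part of which may be technical.

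Keratinocytes that leave the basal layer pass through spinous and granular layers and end as dead cornified cells. Suprabasal cells first make the keratin pair Krt1 and Krt10 and the cadherins of mature desmosomes. Granular cells then make envelope precursors such as loricrin and filaggrin, the enzymes that crosslink or cut them, and the enzymes that build and bind the ceramides of the lipid barrier. Stem cells of the hair follicle can move into the epidermis after a wound and take up this program.

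Totals over genes ran from 22330729 to 29975347 counts per library. Treg-sufficient replicate 3 and Treg-depleted replicate 2 held counts for 19593 and 18605 genes, and the other 6 libraries for 21720 to 23062. Xist RNA stood at 2713 CPM (counts scaled to a common library total) in Treg-sufficient replicate 2, at 72.0 in Treg-depleted replicate 2 and at 0.968 to 2.26 in the other 6. Summed RNA of 4 Y-linked genes stood at 2.84 CPM in Treg-sufficient replicate 2 and at 314 to 417 in the other 7, Treg-depleted replicate 2 (316) among them. Summed markers of basal keratinocytes (6 of 6 genes tested) lay at 14983 to 23635 CPM in Treg-sufficient and 13560 to 29183 CPM in Treg-depleted libraries. Those of follicle stem cells (7 of 7 tested) lay at 5027 to 9662 and 4923 to 9671 CPM, so markers of the labelled cell type were present in every library.

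Of the 37 genes, 11 lie on chromosome 3 and 7 on chromosome 7. RefSeq promoters (GRCm38.p6, 250 bases before to 50 after the start) were found for 31 of them, among 32851 promoters in all. TATAAA, the TATA box, was searched on both strands and occurred in 8 of the 31 (25.8%) against 13.6% of all promoters. The 8 genes were Flg, Hrnr, Ivl, Krt10, Krtdap, Lor, Rptn and Tgm3. TGANTCA, the AP-1 site, also occurred in 8 (25.8%) against 7.81% of all, in Dmkn, Flg, Flg2, Ivl, Krtdap, Lor, Rptn and Sbsn. AACNGGTT, the site of the grainyhead-like factors to which Grhl3 belongs, occurred in 1 (3.23%, Rptn) against 2.09% of all. The 3 motifs do not overlap each other in the stretches printed. A gene with several promoters counted if any of them held the motif, while the share of all was taken over single promoters. The shares of the 31 genes are thus not on the same footing as those of all promoters. These shares are descriptions and were not tested. The 250 bases before the start are shown for the 2 genes that passed the edgeR test between experiments, Krtdap and Grhl3, and for an early and a late structural gene, Krt10 and Lor. Capitals mark TATAAA and TGANTCA.
Krtdap (chr7:30787655-30787904, plus strand): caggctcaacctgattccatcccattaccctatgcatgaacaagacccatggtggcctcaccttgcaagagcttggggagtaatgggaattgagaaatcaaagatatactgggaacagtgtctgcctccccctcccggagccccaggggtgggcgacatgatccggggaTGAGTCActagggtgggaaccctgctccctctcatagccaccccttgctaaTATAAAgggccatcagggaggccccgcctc
Krt10 (chr11:99389365-99389614, minus strand): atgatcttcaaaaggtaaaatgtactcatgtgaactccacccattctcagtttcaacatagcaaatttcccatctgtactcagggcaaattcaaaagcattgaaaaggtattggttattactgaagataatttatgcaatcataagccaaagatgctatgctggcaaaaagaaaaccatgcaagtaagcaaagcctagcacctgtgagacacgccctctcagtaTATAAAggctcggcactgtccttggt
Lor (chr3:92083143-92083392, minus strand): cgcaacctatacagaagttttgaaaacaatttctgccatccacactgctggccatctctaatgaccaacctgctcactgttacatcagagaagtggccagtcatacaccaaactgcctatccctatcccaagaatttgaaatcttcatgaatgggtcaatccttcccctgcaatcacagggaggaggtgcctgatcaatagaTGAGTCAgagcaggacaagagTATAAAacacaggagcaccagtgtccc
Grhl3 (chr4:135573633-135573882, minus strand): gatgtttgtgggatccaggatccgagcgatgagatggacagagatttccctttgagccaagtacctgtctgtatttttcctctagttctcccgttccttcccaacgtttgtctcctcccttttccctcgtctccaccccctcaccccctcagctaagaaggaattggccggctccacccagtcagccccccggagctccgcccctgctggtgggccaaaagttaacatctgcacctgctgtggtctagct
The Krtdap and Lor stretches hold both motifs, the Krt10 stretch holds the TATA box, and the Grhl3 stretch holds neither of these letters.

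Levels of different genes are compared as CPM per kilobase of annotated exon, averaged over the 8 libraries. On this scale the median gene stood at 44.9 in the early class, 1.40 in the late class and 1.22 in the lipid barrier class, with wide ranges in each. Dermokine (Dmkn, a secreted protein of suprabasal cells) stood highest at 218, followed by the calmodulin-like Calml3 at 206, Krt10 at 138, the secreted Krtdap at 134, suprabasin (Sbsn) at 89.4, Krt1 at 63.2 and the type II keratin Krt77 at 54.4. The other early genes ran lower, with Dsg1a at 35.4, Grhl3 at 3.89, Dsc1 at 3.54, involucrin (Ivl) at 3.46, Skint3 at 3.15, Tgm1 at 1.61 and Krt2 at 0.251. The order differed in part between conditions. Dmkn had means of 210.4 in Treg-sufficient and 226 in Treg-depleted libraries and Calml3 of 209.7 and 203. Krt10 stood above Krtdap in Treg-sufficient libraries (163 and 126) and below it in Treg-depleted ones (112 and 143). The same held for Krt1 and Krt77, at 87.9 and 41.2 against 38.5 and 67.7. Given the spread between libraries described below, these neighbours are not separated. Among late genes the calmodulin Calm4 (51.9), the profilaggrin-cutting protease Asprv1 (21.9) and the shedding protease Klk7 (13.7) led. The other late genes stood far lower on the same scale. Among structural envelope genes Sprr4 stood at 4.63, loricrin (Lor) at 1.88, cornifelin (Cnfn) at 1.53, hornerin (Hrnr) at 0.611, repetin (Rptn) at 0.340 and filaggrin-2 (Flg2) at 0.276. The proteases Casp14 (4.76) and Klk5 (2.96), the transglutaminase Tgm3 (0.332) and the adhesion gene Cdsn (2.83) stood at similar levels. Among lipid barrier genes the fatty acid elongase Elovl4 (12.6) and the ceramide synthase Cers3 (6.67) led.

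Profilaggrin itself (Flg) had 1 count in all, in Treg-sufficient replicate 4. A library with 0 counts allows up to 3 counts, or 0.100 to 0.134 CPM at these depths, by counting error alone. The late envelope gene Lce1b had 1, 1, 0 and 0 counts in Treg-sufficient and 3, 0, 16 and 15 in Treg-depleted replicates 1 to 4. Its neighbour Lce1c had 0, 1, 0 and 0 against 0, 0, 18 and 18. For both, nearly all counts came from the Treg-depleted libraries of experiment 2. These 3 genes were too low to be tested, which left 34. Reads that aligned to several places (26.2 to 30.6% of all reads) were counted for no gene, so the levels of the repeat-rich Flg and Flg2, of the Lce genes, of Skint3, of the keratins and of Dsg1a, which has close copies, are uncertain.

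**Figure D1:**
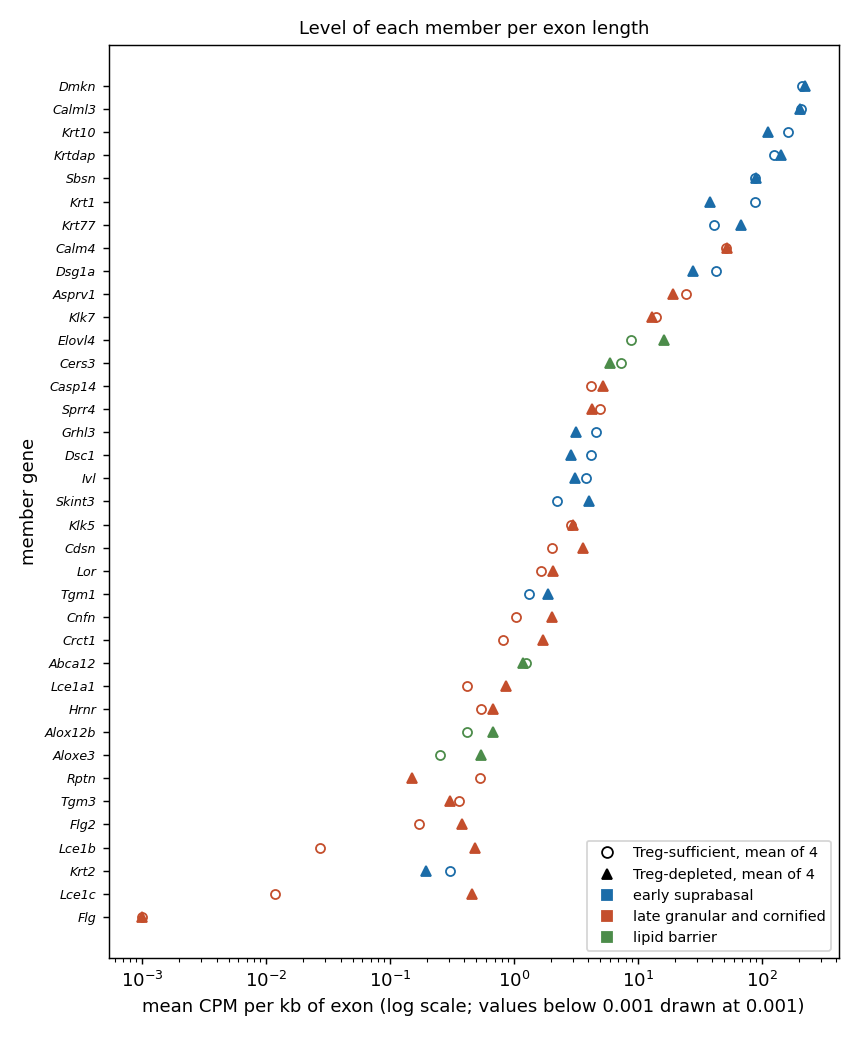
Mean CPM per kilobase of exon (log axis) of the 37 genes in Treg-sufficient (open circles) and Treg-depleted (filled triangles) libraries, 4 in each, coloured by class. The 7 highest genes are early suprabasal ones, led by Dmkn at 218, other early genes lie among the late ones, and the late class has a median of 1.40.

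The genes varied more between libraries than most genes did. Among the 26 of them whose mean normalized count was 50 or more, the median ratio of the highest to the lowest library was 5.03, and 15 of 26 (57.7%) exceeded 4-fold. Among all 12946 genes at that level the median ratio was 1.70, and 10.5% exceeded 4-fold. Replicates of 1 condition in 1 experiment often lay far apart. Krt77 had 389 CPM in Treg-depleted replicate 1 and 18.1 in replicate 2, and 8.27 CPM in Treg-sufficient replicate 3 and 80.5 in replicate 4.

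The late genes were high or low together in single libraries. All 15 tested late genes were highest in Treg-depleted replicate 3 (9 genes) or Treg-sufficient replicate 2 (6 genes). Over all 16495 genes tested, those libraries were highest in 8.86% and 7.11%. Treg-depleted replicate 2 was lowest in 7 of the 15 and Treg-sufficient replicate 3 in 6. Summed late genes stood at 138, 271, 88.3 and 104 CPM in Treg-sufficient and at 154, 65.5, 242 and 158 CPM in Treg-depleted replicates 1 to 4. Each condition thus held 1 library near the top and 1 at the bottom of the range. Over all 34 tested genes, Treg-sufficient replicate 3 and Treg-depleted replicate 2 were each the lowest in 13. These were the libraries with the fewest detected genes, and over all 16495 genes tested they were lowest in 19.5% and 22.0%. The part that library quality or the cells sorted played in these values was not tested.

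**Figure D2:**
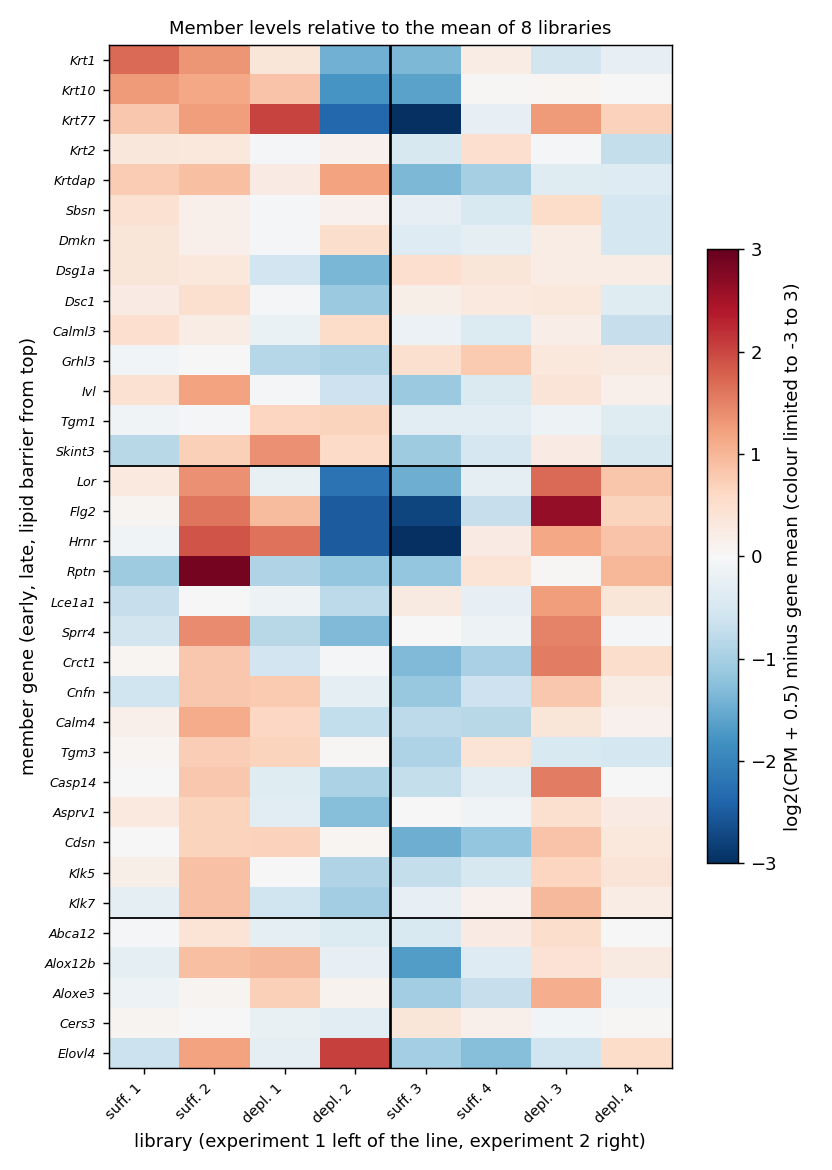
Level of the 34 tested genes in each library, as log2(CPM + 0.5) minus the gene's mean over 8 libraries (red above, blue below), with early, late and lipid barrier genes from top to bottom and experiment 1 left of the vertical line. Treg-depleted replicate 2 and Treg-sufficient replicate 3 form blue columns among the late genes, and Treg-sufficient replicate 2 and Treg-depleted replicate 3 red ones.

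Between conditions over both experiments, the genes showed no common direction. By the quasi-likelihood test of edgeR, adjusted after Benjamini and Hochberg, 0 of 34 passed an adjusted p of 0.05, and the share of all 16495 genes that passed was 0%. Fitted values were above 0 for 19 and below 0 for 15, with a median log2 fold change of 0.11 (Treg-depleted against Treg-sufficient) beside 0.0019 for all genes tested. At an unadjusted p under 0.05 there were 5 of 34 (14.7%), against 7.12% of all genes, and DESeq2 called 0 of 34 and 0.509% of all genes. The class medians were -0.05 for early, 0.20 for late and 1.00 for lipid barrier genes. These values turned with single libraries. Without replicates 2 of both conditions 25 of 34 values were above 0 with a median of 0.66, and 14 of 15 late genes with a median of 1.26. Leaving out Treg-sufficient replicate 3 gave 15 of 34 above 0 and a median of -0.14, with 6 of 15 late genes above 0 and a late median of -0.27. Leaving out Treg-depleted replicate 3 gave 14 of 34 and -0.25, with a late median of -0.14, and leaving out Treg-sufficient replicate 4 gave 15 of 34 and -0.051. With each of the other 5 libraries left out in turn the median lay between 0.13 and 0.40. The late median reached 0.74 when Treg-sufficient replicate 2 was dropped and 0.67 when Treg-depleted replicate 2 was. For lipid barrier genes, dropping Treg-sufficient replicate 3 gave a median of 0.45, and dropping Treg-depleted replicate 2 gave 0.49. In bulk RNA of sorted cells, fewer differentiating cells and less RNA of these genes per cell cannot be told apart.

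The desmosomal cadherin Dsg1a (ENSMUSG00000069441), which ties suprabasal cells to each other, was the 1 gene of the 34 whose conditions did not overlap. That is 1 of 34 (2.94%), against 2.32% of all genes in either direction and 1.05% with Treg-depleted lower, so the count is near its background. Dsg1a levels were 239.6, 232, 265 and 240.2 CPM in Treg-sufficient and 125, 71.8, 217 and 217 CPM in Treg-depleted replicates 1 to 4. Every Treg-depleted library lay below every Treg-sufficient one, with the larger gap in experiment 1. The means were 244 ± 14.5 and 158 ± 71.7 CPM (SD, n = 4 each), and the log2 fold change of -0.74 (SE 0.24) had an adjusted p of 0.686 by edgeR. Its partner cadherin Dsc1 averaged 21.1 ± 2.08 and 14.6 ± 5.73 CPM, with overlapping conditions.

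The transcription factor Grhl3, which drives barrier formation, had the smallest unadjusted p of the 34 (0.00501). It stood at 9.52, 10.01, 14.3 and 17.7 CPM in Treg-sufficient and 5.36, 5.06, 12.6 and 12.3 CPM in Treg-depleted replicates 1 to 4. Treg-depleted libraries lay below Treg-sufficient ones in both experiments, although the conditions overlapped across experiments. The log2 fold change was -0.63 (SE 0.17, adjusted p = 0.686 by edgeR). The lipoxygenase Aloxe3, which acts on barrier ceramides after Alox12b, stood at 2.00, 2.43, 0.839 and 1.23 CPM against 4.02, 2.48, 5.43 and 2.06 CPM. Its log2 fold change was 1.19 (SE 0.43, adjusted p = 0.686 by edgeR), and Treg-depleted libraries were the higher ones within each experiment. The remaining genes at an unadjusted p under 0.05 were Cers3 at -0.30 (SE 0.11) and corneodesmosin (Cdsn), an adhesion protein of the cornified layer, at 1.06 (SE 0.45).

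**Figure D3:**
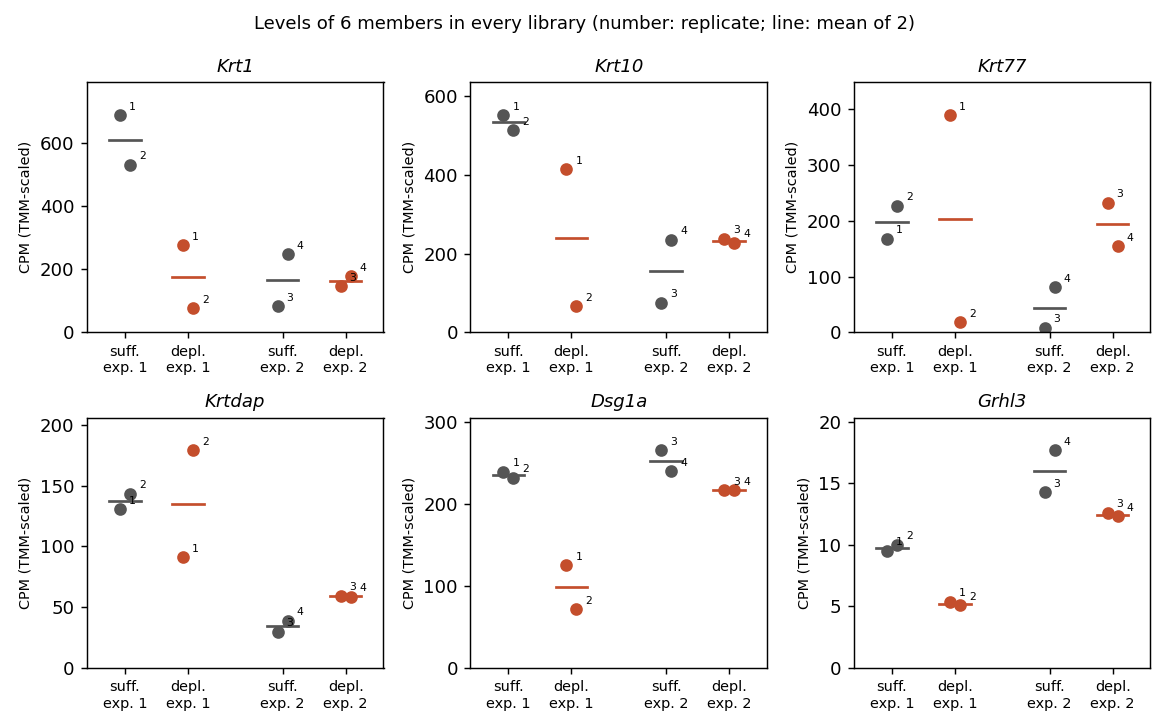
CPM of 6 early genes in every library, with experiment 1 left and experiment 2 right in each panel; points are libraries, numbers their replicates and lines means of 2. Dsg1a is lower in all 4 Treg-depleted libraries, Grhl3 is higher and Krtdap lower in experiment 2, and the keratins spread widely within groups.

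Within experiment 1, values below 0 prevailed. Of the 34 genes, 25 had a log2 fold change below 0 and 9 above, with a median of -0.54 beside 0.015 for all genes. By edgeR 0 passed an adjusted p of 0.05, against 0.606% of all genes, and 11 had an unadjusted p under 0.05 (32.4%), against 11.1% of all genes. DESeq2 called 4 of 34 as lower, namely Dsg1a, Grhl3, Asprv1 and Klk7, and 4.37% of all genes. Groups of 2 libraries did not overlap for 17 genes with Treg-depleted lower and for 2 with it higher (Tgm1 and Aloxe3), against backgrounds of 19% and 18.6% of all genes. The smallest adjusted p by edgeR was that of Dsg1a, 0.0680, at a log2 fold change of -1.26 (SE 0.24), and Dsg1a passed when Treg-depleted replicate 1 or 2 was left out. Grhl3 followed at -0.90 (SE 0.22) and Asprv1 at -1.23 (SE 0.31). Asprv1 stood at 38.6 and 50.5 CPM in Treg-sufficient and 25.2 and 12.7 CPM in Treg-depleted replicates 1 and 2, without overlap. Over the 34 the median was -0.96 with Treg-sufficient replicate 1 left out, -0.34 with Treg-sufficient replicate 2 left out and -1.24 with Treg-depleted replicate 1 left out. The late class had the lowest median, -1.08, with 13 of 15 below 0. The late median changed direction without replicates 2 of both conditions. With 1 library left out it ran from -1.76 (Treg-depleted replicate 1) to -0.10 (Treg-sufficient replicate 2), with -0.68 when Treg-depleted replicate 2 was left out. Without both replicates 2, 7 of the 15 late genes were below 0 and their median was 0.42, while the early median was -0.56 and 11 of 14 early genes were below 0.

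Within experiment 2, values above 0 prevailed. There 27 of 34 genes had a log2 fold change above 0, with a median of 0.93 beside 0.0012 for all genes. By edgeR 0 passed, against 0% of all genes, and 11 had an unadjusted p under 0.05 (32.4%), against 1.75% of all genes, each with Treg-depleted higher. DESeq2 called 1 of 34, Cdsn, as higher, and 0.00606% of all genes. Groups did not overlap for 19 genes with Treg-depleted higher, against 16.7% of all genes, and for 3 with it lower (Dsg1a, Grhl3 and Cers3), against 15.9%. The 19 held 12 of the 15 late genes, 4 early genes (Krt77, Krtdap, Ivl and Skint3) and 3 lipid barrier genes (Alox12b, Aloxe3 and Elovl4). Late genes had a median of 1.49 with 14 of 15 above 0, lipid barrier genes 1.27 and early genes 0.17. Leaving out Treg-sufficient replicate 3 gave a median of 0.59 over the 34, and leaving out Treg-depleted replicate 3 gave 0.55. The early median was -0.13 without Treg-depleted replicate 3, 0.52 when Treg-depleted replicate 4 was left out and 0.32 when Treg-sufficient replicate 4 was. The lipid barrier median was 0.60 without Treg-depleted replicate 4, and the late median ran from 1.13 to 2.01 with 1 library left out.

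Cdsn had the smallest p there, at 2.06 and 2.68 CPM in Treg-sufficient against 12.4 and 8.37 CPM in Treg-depleted replicates 3 and 4. In experiment 1 it stood at 6.61 and 10.7 against 11 and 6.93 CPM. Its 2 conditions were thus apart in experiment 2 and overlapping in experiment 1, and the log2 fold changes were 2.12 (SE 0.39) and 0.05. The adjusted p in experiment 2 was 1.00 by edgeR. The cysteine-rich envelope gene Crct1 had 0 and 4 counts in Treg-sufficient against 80 and 37 in Treg-depleted replicates 3 and 4, and 22 and 49 against 10 and 15 in replicates 1 and 2. Its levels in experiment 2 were 0 and 0.132 against 3.10 and 1.31 CPM, and the fitted log2 fold change of 4.90 (SE 1.10) rests on those 4 counts. Aloxe3 followed at 1.85 (SE 0.56).

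The test of the difference between the 2 experiments, the interaction, called 0 of 34 genes by edgeR, against 0% of all genes. Values were above 0 for 30 of 34, with a median of 1.72 beside -0.010 for all genes, and 12 had an unadjusted p under 0.05 (35.3%), against 5.6% of all genes. DESeq2 called 7 of them (Ivl, Lor, Crct1, Casp14, Asprv1, Cdsn and Klk5) and 1.1% of all genes, so whether the experiments differed in these genes depended on the tool. The smallest adjusted p by edgeR was 0.384, for Crct1 at 6.14 (SE 1.41), followed by Ivl, an early envelope scaffold, at 2.35 (SE 0.58) and Cdsn at 2.07 (SE 0.53). Ivl stood at 8.32 and 14.2 against 5.77 and 3.68 CPM in experiment 1 and at 2.44 and 4.27 against 7.83 and 6.64 CPM in experiment 2, without overlap in either. When Treg-sufficient replicate 3 and Treg-depleted replicate 2 were left out, the median was 0.87 and 30 of 34 values were above 0. It was 0.99 without Treg-sufficient replicate 2.

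**Figure D4:**
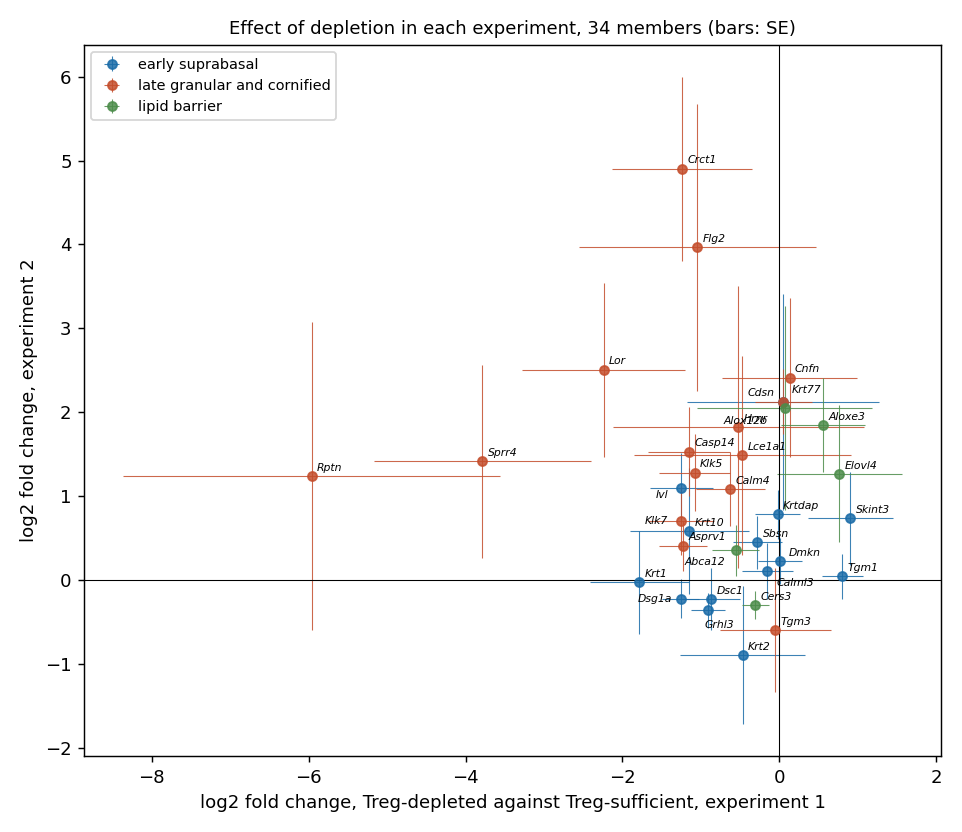
Log2 fold change of Treg-depleted against Treg-sufficient libraries in experiment 1 (horizontal) and experiment 2 (vertical) for 34 genes, with SE bars and colours by class. Most late genes lie in the upper left, below 0 in experiment 1 and above 0 in experiment 2. In experiment 1 Rptn had 1 and 227 counts in Treg-sufficient against 3 and 0 in Treg-depleted replicates 1 and 2. Sprr4 had 10 and 84 against 6 and 0, so most counts of both genes came from Treg-sufficient replicate 2.

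Among early genes Dmkn, Sbsn and Calml3 varied by 2.10-, 2.09- and 2.36-fold from the lowest to the highest library. Dmkn stood at 596, 513, 356 and 379.9 CPM in Treg-sufficient and 447, 669.6, 543 and 319 CPM in Treg-depleted replicates 1 to 4. Sbsn stood at 431, 349, 266 and 228 against 300.5, 341, 458 and 219 CPM. Neither separated the conditions, and their log2 fold changes were 0.12 and 0.08. Calml3 stood at 401, 328, 249.8 and 213 against 244, 412, 324 and 175 CPM, also overlapping, with -0.02. The keratins, picked here after their values were seen, spread more. Krt1 stood at 689.9, 532, 83.0 and 247 CPM in Treg-sufficient and 276, 77.6, 146 and 179 CPM in Treg-depleted replicates 1 to 4. Its partner Krt10 stood at 553, 514, 75.5 and 236 against 414, 67.0, 239 and 228 CPM. Both were lower in each Treg-depleted library of experiment 1 than in its Treg-sufficient ones and overlapped in experiment 2. Krt77 stood at 167, 227, 8.27 and 80.5 against 389, 18.1, 232 and 154 CPM, with no such order. The crosslinking enzyme Tgm1 stood at 4.50, 4.65, 3.85 and 3.84 against 7.97, 8.03, 4.30 and 3.65 CPM, higher with depletion in experiment 1 and overlapping in experiment 2. Its log2 fold change in experiment 1 was 0.81 (SE 0.27). Skint3, of a family of immunoglobulin-like proteins of skin and thymus, had 0.82 (SE 0.37) over both experiments, and the upper-layer keratin Krt2 averaged 0.798 ± 0.342 and 0.515 ± 0.234 CPM.

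Among late genes Calm4 stood at 47.4, 92.7, 24.6 and 23.6 CPM in Treg-sufficient and 65.4, 25.3, 55.3 and 46.7 CPM in Treg-depleted replicates 1 to 4. Asprv1 in experiment 2 stood at 32.1 and 29.5 against 44.2 and 37.6 CPM, the opposite order to experiment 1. Lor, the main envelope protein, stood at 2.87, 6.69, 0.496 and 1.75 against 1.86, 0.0956, 8.53 and 4.40 CPM. All of these show the same layout, with the conditions apart in experiment 2 and, for Asprv1 and Lor, apart the other way in experiment 1. The protease Casp14, which takes part in filaggrin breakdown, stood at 5.68 and 7.62 CPM in Treg-sufficient and 28.8 and 9.72 CPM in Treg-depleted libraries of experiment 2. Klk5 and Klk7, serine proteases of shedding, had log2 fold changes of 1.28 and 0.71 there and of -1.08 and -1.25 in experiment 1. Flg2, Hrnr, Lce1a1 and Cnfn had values of 3.96, 1.83, 1.49 and 2.41 in experiment 2, with SEs of 0.95 to 1.71. Tgm3, the hair and envelope transglutaminase, was the 1 late gene below 0 in experiment 2, at -0.60 (SE 0.74).

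Among lipid barrier genes Elovl4 stood at 17.7, 64.1, 13.4 and 11.1 CPM in Treg-sufficient and 22.9, 117, 18.0 and 40.9 CPM in Treg-depleted replicates 1 to 4. It was highest in replicate 2 of each condition. Cers3 stood at 22.7, 21.3, 27.9 and 24.0 against 18.4, 17.2, 20.3 and 21.9 CPM, the narrowest range of the 26 better measured genes. The lamellar granule transporter Abca12 averaged 18.5 ± 4.70 and 17.6 ± 5.59 CPM and the lipoxygenase Alox12b 1.02 ± 1.07 and 1.66 ± 0.743 CPM (SD, n = 4 each).

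Between experiments, 2 of the 34 genes passed by the same edgeR test, against 1.62% of all genes. Krtdap (ENSMUSG00000074199, GRCm38 chromosome 7, 30787896 to 30791097, plus strand) was lower in experiment 2. It stood at 130.4, 143, 29.7 and 38.6 CPM in Treg-sufficient and 91.1, 179, 59.3 and 58.5 CPM in Treg-depleted replicates 1 to 4. All 4 libraries of experiment 2 lay below all 4 of experiment 1, at 46.5 ± 14.7 against 136 ± 36.3 CPM. Its log2 fold change was -1.60 (SE 0.24) with an edgeR adjusted p of 0.0439. Grhl3 (ENSMUSG00000037188, GRCm38 chromosome 4, 135541888 to 135573630, minus strand) was higher, at 14.2 ± 2.47 against 7.49 ± 2.64 CPM, again without overlap (0.98, SE 0.17, edgeR adjusted p = 0.0446). Both calls were lost when any 1 of Treg-sufficient replicates 2, 3 or 4 or Treg-depleted replicates 2, 3 or 4 was left out, and that of Grhl3 also without Treg-depleted replicate 1. Without overlap between experiments, 1 of the 34 genes was higher in experiment 2 (Grhl3) and 2 were lower (Krtdap and Tgm1). That is 8.82%, against 13.4% of all genes, so the share lay below its background. The labels give an experiment number and no date or batch, so what differed between the experiments was not tested.

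Of 112 other genes of cornification, its proteases, lipids and regulators, 81 were tested. Between conditions 0 passed by edgeR, against 0% of all genes, and 38 lay above 0 and 43 below. At an unadjusted edgeR p under 0.05 there were 9 (11.1%), against 7.12% of all genes. The median of the 81 was -0.0059 between conditions and 0.12 in the interaction, beside 0.0019 and -0.010 for all genes. In experiment 1 the metallothionein Mt4 of differentiating epithelium fell, from 8.97 and 5.57 CPM to 0.962 and 0.621 CPM, a log2 fold change of -3.17 (SE 0.50) with an edgeR adjusted p of 0.0460. In experiment 2 Mt4 stood at 15.9 and 8.14 against 3.45 and 5.71 CPM, and 0 of the 81 passed. Without Treg-depleted replicate 3 the test within experiment 1 called 0 genes in all, Mt4 included. Between experiments Cebpa, a factor of early differentiation, was higher in experiment 2 (0.69, SE 0.13, adjusted p = 0.0483 by edgeR). Tgm5, an envelope transglutaminase, was lower (-1.41, SE 0.28, adjusted p = 0.0485), as was the gasdermin Gsdmc (-2.52, SE 0.48, adjusted p = 0.0483). Those calls too were lost without Treg-sufficient replicate 2, Treg-depleted replicate 2 or Treg-depleted replicate 4, when 0 genes passed.

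The 14 regulators held 7 values on each side of 0 between conditions. Klf4, a factor of late differentiation that also responds to stress, stood at 158, 117, 138 and 161 CPM in Treg-sufficient and 359, 352, 275 and 148 CPM in Treg-depleted replicates 1 to 4. It was higher in 3 of the 4 Treg-depleted libraries than in any Treg-sufficient one, at 143 ± 20.4 against 283 ± 98.0 CPM. Its log2 fold change was 0.94 (SE 0.24) with an edgeR adjusted p of 0.686. The value was 1.37 in experiment 1 and 0.50 in experiment 2. Ovol1 had -0.59 (SE 0.28), Maf -0.27 (SE 0.20), Zfp750 -0.18 (SE 0.15), Hopx 0.20 (SE 0.25) and Prdm1 0.17 (SE 0.22) between conditions. Within experiment 2 Prdm1, also known as Blimp1, a repressor in granular cells and sebaceous progenitors, stood at 32.5 and 31.5 against 45.4 and 57.5 CPM.

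Markers of other cells also differed between these libraries. Melanocyte markers (6 of 6 tested) summed to 65.0 to 393 CPM in Treg-sufficient and 58.7 to 189 CPM in Treg-depleted libraries, highest in Treg-sufficient replicate 3. Inner root sheath and hair shaft markers (7 of 9 tested) summed to 47.2 to 409 and 34.4 to 197 CPM, with Krt35 at 0 in Treg-depleted replicate 2. Sebaceous gland markers (5 of 6 tested) summed to 632 to 744 and 457 to 739.8 CPM, with Awat1 at 0 in Treg-sufficient replicate 3. That sum was mostly Fasn, Scd1 and Elovl6, with means over all libraries of 279, 205 and 119 CPM. Mgst1 averaged 37.1, Pparg 1.39 and Awat1 0.858 CPM, so the sum is no measure of sebaceous cells. The part of these marker sets in the late genes was not tested. Endothelial (3 of 5 tested, 3.92 to 8.01 and 1.86 to 4.01 CPM, with Cdh5, Kdr and Emcn at 0 in a library), macrophage and Langerhans cell (2 of 6 tested, 4.58 to 7.62 and 6.12 to 14.5 CPM, with Cd207, Adgre1, Csf1r and Lyz2 at 0 in a library) and T cell markers (1 of 7 tested, 0.478 to 2.48 and 0.478 to 1.42 CPM, each of the 7 at 0 in a library) stayed low. Fibroblast markers other than Postn summed to 36.8 to 104 and 19.6 to 68.6 CPM, with Lum and Dpt at 0 in a library, while Postn alone stood at 1236 to 5978 and 2166 to 16546 CPM.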

How the data were processed

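RNA of sorted Lgr5-traced cells was sequenced from 8 libraries, 4 per condition, after TruSeq Stranded mRNA preparation, per the labels' protocols. The authors deposited raw read counts per gene, with no normalization. The build GRCm38.p4 and the tools HTSeq, SAMtools, TopHat2 (version 2) and DESeq2 are named per the submitters' processing notes. What each tool did, the counting's strand setting and its annotation release are not stated in the sources used here. Counts were whole numbers for 46078 genes, and 5 tallies of reads in no gene were kept out. GENCODE M21 (GRCm38) paired 45143 identifiers with symbols and gave exon lengths over all isoforms.

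The tests used edgeR 4.0.16 (R 4.3.3) with TMM factors, filterByExpr (minimum count 10), its quasi-likelihood F-test and p-values adjusted after Benjamini and Hochberg over 16495 genes, with a threshold of 0.05. The model of condition and experiment had 5 residual degrees of freedom. A model of 4 groups of 2 libraries (4 degrees) gave the effects within experiments and the interaction. Each SE is the absolute log2 fold change divided by the square root of its F statistic, and is only approximate at very low counts. CPM use TMM-scaled totals, except that Xist, the Y-linked genes and the limit for 0 counts use unscaled totals. The steps were tested on simulated data in which each gene varied independently around a common mean, apart from added effects. Neither the interaction nor libraries that shift many genes together were simulated. The simulation thus cannot decide how the steps fare where single libraries move the results. Alternatives were DESeq2 1.42.0, other scalings, no filter, left-out libraries and a replicate block.

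The genes and lists were chosen with earlier results of these data known. Values in every library are given for the 2 genes of each class with the highest mean CPM, for genes past the threshold and, where none passed, for the 3 with the smallest p, and other genes so described were picked after their values were seen. Other genes of cornification are named where they passed, up to 5 a comparison, beside 7 regulators, of which 1 is not reported here. Depth of 22330729 to 29975347 counts limits only the lowest genes.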

Additional observations from a re-analysis of the deposited data

Results flagged for a closer look

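Treg-sufficient replicate 2 stood far from the other 3 Treg-sufficient libraries for 4 genes. It held 7.75 CPM of Rptn where the next library held 0.993, 2.87 CPM of Sprr4 (next 0.763), 1.98 CPM of Cnfn (next 0.436) and 64.1 CPM of Elovl4 (next 17.7). In each case the gap to the nearest library was so large a share of the whole range of the 4 libraries that it passed Dixon's limit for 4 values. In all, 68 groups of 4 libraries were examined, and chance alone passes this limit in about 1 of 20. This was also the library with 2713 CPM of Xist. It alone was nearly without RNA of the 4 Y-linked genes, at 2.84 CPM against 314 to 417 in the others. The libraries were thus not matched in these sex-linked RNAs. Whether that bears on the 4 genes was not tested.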

How the results depend on the processing

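Between conditions the count of the 34 genes past the threshold was 0 under both other scalings, DESeq2, every left-out library, the model without an experiment term and the replicate block. Without the filter on low counts it was 7 (Krt77, Skint3, Flg2, Cdsn and Elovl4 higher, Krt1 and Dsg1a lower), with 820 of all genes called. DESeq2 called 84 of all genes and edgeR 0. The median of the 34 was 0.66 without both replicates 2, and -0.25 to 0.40 with 1 library left out. Libraries sharing a title letter across conditions showed little shared deviation (correlations of deviations -0.095 and -0.12). With groups of 2 libraries, these values cannot decide whether the letters mark a pairing. The replicate block gave 0 calls and a median of 0.11.

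In experiment 1 the count over all genes was 100. It was 721 by DESeq2, 1152 without the filter, 487 without both replicates 2, 570 without Treg-sufficient replicate 3 and Treg-depleted replicate 2, and 0 to 442 with 1 library left out. Among the 34 genes it was 4, 13, 0, 1 and 0 to 2 in that order, and Dsg1a was the gene called without Treg-depleted replicate 2 alone or with Treg-sufficient replicate 3. The median ran from -1.24 to -0.34 with 1 library left out. In experiment 2 DESeq2 called 1 gene in all, and 1 of the 34, and edgeR without the filter called 132 and 10.

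For the interaction DESeq2 called 182 genes and 7 of the 34, and edgeR without the filter called 534 and 17. With 1 library left out 0 to 9 genes were called, and 89 without both replicates 2. The median ran from 0.99 to 2.35 with 1 library left out, and was 0.87 without both replicates 2 or without Treg-sufficient replicate 3 and Treg-depleted replicate 2. Between experiments DESeq2 called 2167 genes and 4 of the 34, and edgeR without the filter called 2443 and 13. Leaving out 1 library gave 0 to 651 genes and 0 to 2 of the 34. The counts were 2 and 0 without both replicates 2, and 0 and 0 without Treg-sufficient replicate 3 and Treg-depleted replicate 2. The causes were not tested.

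Signs of single genes also moved: 16 of 34 changed sign under some alternative between conditions, 14 in experiment 1, 9 in experiment 2 and 9 in the interaction. With 1 library left out a group of 1 was assumed to vary like the others. Values of genes with few counts, such as Rptn, Sprr4 and Crct1, are uncertain, and their counts differed widely between libraries of similar depth. Rptn had 1 and 227 counts in Treg-sufficient replicates 1 and 2, at totals of 27263384 and 28850186.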
